A study of Arabidopsis thaliana with 9 samples.

Results

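The aquaporin family of Arabidopsis thaliana was followed across 9 seedling libraries. Its 35 members were chosen by locus from the 33518 genes of the deposited tables. They comprise 13 plasma membrane intrinsic proteins (PIP), 10 tonoplast intrinsic proteins (TIP), 9 NOD26-like intrinsic proteins (NIP) and 3 small basic intrinsic proteins (SIP). Members are written with a hyphen, as in protein databases, so that PIP2-2 is the gene that the annotation calls PIP2;2.

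Poly(A) RNA of whole seedlings was sequenced for 3 genotypes under 3 treatments. The genotypes were the wild type Col-0 (WT), the T-DNA mutant p5cs1-4, hit in the proline synthesis gene P5CS1, and the point mutant aba2-1, hit in the abscisic acid (ABA) synthesis gene ABA2. All were germinated on agar and grown under continuous light for 7 days. Control seedlings then spent 96 h on fresh medium at -0.25 MPa. Stress seedlings spent the same time on medium made dry with polyethylene glycol (-1.2 MPa), and release seedlings were put back on control medium for a further 10 h after it. Each mutant is a single line. RNA from 3 experiments was pooled before sequencing, so every genotype and treatment is 1 library, and a difference between 2 libraries has no replicate check.

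Aquaporins are channel proteins that let water, and in some members small uncharged solutes, cross membranes. PIPs sit mainly in the plasma membrane and TIPs in the vacuolar membrane (tonoplast). Many NIPs carry solutes such as boric acid, and SIPs lie in the endoplasmic reticulum. PIPs form the groups PIP1 and PIP2, and in maize PIP1 proteins need a PIP2 partner to reach the cell surface. In roots and leaves these channels set much of the water conductance of the cell-to-cell path, and plants change it by transcription, trafficking and phosphorylation.

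Depth ran from 4898426 reads in the WT control to 18273148 reads in the p5cs1-4 control. The stress and release labels of each genotype were at odds with 3 marker genes. P5CS1, which is known to be induced by low water potential, stood at 195, 74.1 and 3918 CPM, which is reads scaled to a common library total, in the WT control, stress and release libraries, at 634, 91.2 and 1389 CPM for aba2-1 and at 125, 174 and 1199 CPM for p5cs1-4. PRODH1, the proline breakdown gene that is known to be induced on release and held down in stress, stood at 25.5, 33.6 and 20.1 CPM in the release libraries of WT, aba2-1 and p5cs1-4, against 188, 401 and 240.4 CPM in their stress libraries. The dehydrin gene RAB18 was also higher in the release than in the stress library of each genotype. It stood at 31.4, 13.9 and 4950 CPM in the WT control, stress and release libraries. In the same order it stood at 252, 5.15 and 66.2 CPM for aba2-1 and at 22.4, 81.4 and 4778 CPM for p5cs1-4. In aba2-1 the release library was thus below the control. That control enters every aba2-1 ratio to control given below, and why RAB18 and P5CS1 stood high in it was not tested. The letters that end the names of the deposited tables stand the other way round too. Libraries are therefore called labelled stress and labelled release throughout, and which of them held dry seedlings was not settled. P5CS1 reads in p5cs1-4 do not check the genotype, since the tables do not say on which side of the insertion they lie, and a point mutation in ABA2 leaves no mark in a read count.

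PIP2-2 and PIP2-3 are the closest pair, and their coding sequences show how far reads of the family can be told apart. They lie 2612 bases apart on chromosome 2 on opposite strands, PIP2-2 (AT2G37170) at chr2:15613368-15615022 on the minus strand and PIP2-3 (AT2G37180) at chr2:15617635-15619155 on the plus strand (build TAIR10.1, RefSeq annotation). Their coding sequences differ at 45 of 858 aligned bases, an identity of 94.76%, and the longest identical run is 242 bases. The first pair of lines shows an identical stretch of 90 bases, and the second the stretch of 90 bases with the most differences, with the 12 differing bases in capitals.
PIP2-2 coding bases 304 to 393: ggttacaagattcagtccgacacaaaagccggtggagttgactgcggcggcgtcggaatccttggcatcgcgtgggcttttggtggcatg
PIP2-3 coding bases 175 to 264: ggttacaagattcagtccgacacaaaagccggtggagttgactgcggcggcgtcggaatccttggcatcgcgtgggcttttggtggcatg
PIP2-2 coding bases 532 to 621: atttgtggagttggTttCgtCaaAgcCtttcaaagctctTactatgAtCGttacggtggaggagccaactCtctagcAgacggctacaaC
PIP2-3 coding bases 403 to 492: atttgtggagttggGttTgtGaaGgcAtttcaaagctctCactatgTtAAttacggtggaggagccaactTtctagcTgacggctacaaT
A read inside the identical stretch fits both genes, while a read in the other stretch covers differing bases. The deposited fraction of reads that map to several places was between 0.067 and 0.127 for PIP2-2 and for PIP2-3 in all libraries. It was 0 in every library for 26 of the 35 members and at most 0.02 for 31. The other 2 were NIP2-1, with up to 0.188, and NIP3-1, with up to 0.0755, both with few reads. Coding identity to the nearest member ran from 56.92% for SIP2-1 to 94.76% for PIP2-2 and PIP2-3. The tandem pair NIP4-1 and NIP4-2, 1989 bases apart on chromosome 5, shared 88.15%.

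A pair of promoters is shown next, as the 250 bases before the annotated start. They belong to the members with the lowest and the highest ratio of labelled release to control in WT, on the scale of CPM + 1. TIP2-1 (AT3G16240, chr3:5505360-5507050, plus strand, 3 exons) was the lowest member relative to control and PIP2-5 (AT3G54820, chr3:20301759-20304309, plus strand, 4 exons) the highest. TIP3-2 had 46 reads under labelled release and 0 in the WT control, so its place below PIP2-5 rests on the added 1 CPM. Capitals mark a match of CCGAC, read here from the other strand as GTCGG.
TIP2-1, chr3:5505110-5505359: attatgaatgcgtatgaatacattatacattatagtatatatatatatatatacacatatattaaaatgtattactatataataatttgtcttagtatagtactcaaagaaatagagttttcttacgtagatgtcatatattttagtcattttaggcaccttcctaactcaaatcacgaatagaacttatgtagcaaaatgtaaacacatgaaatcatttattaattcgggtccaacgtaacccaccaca
PIP2-5, chr3:20301509-20301758: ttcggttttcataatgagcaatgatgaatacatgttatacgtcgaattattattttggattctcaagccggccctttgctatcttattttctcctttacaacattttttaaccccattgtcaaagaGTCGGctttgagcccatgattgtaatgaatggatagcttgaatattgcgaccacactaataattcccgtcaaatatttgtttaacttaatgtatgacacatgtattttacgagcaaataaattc
A pair of core motifs of water-stress promoters was searched on both strands in such windows, ACGTG (core of the ABA-responsive element) and CCGAC (core of the dehydration-responsive element). ACGTG was found in 22.9% of 27443 promoters and in 4 of the 35 members (TIP1-1, TIP3-1, TIP5-1 and SIP1-1), which is 11.4%. CCGAC was found in 12% of all promoters and in 4 members (PIP1-3, PIP2-5, TIP1-1 and TIP1-2), again 11.4%. The match in PIP2-5 begins 124 bases before the start, and the TIP2-1 window holds neither motif. A match is a run of letters and does not show that a factor binds there.

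Aquaporin transcripts were abundant in control seedlings and less so in the libraries labelled release. The 35 genes took 0.634% of all reads in the WT control, with an exact 95% binomial interval of 0.627% to 0.641% for counting error alone. Their share was 0.561% in the WT library labelled stress and 0.251% in that labelled release. In p5cs1-4 the shares were 0.532%, 0.472% and 0.239%, and in aba2-1 they were 0.494%, 0.357% and 0.327%. The share was thus lowest under labelled release in each genotype, and its drop from control was smaller in aba2-1 than in the other two. In bulk tissue, fewer cells that express a gene and less RNA per cell cannot be told apart.

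Levels of different genes are set side by side as RPKM, which divides the reads by gene length and library total. PIP1-2 had the highest mean over the 9 libraries, 564 RPKM, and ranged from 425 to 711. It was followed by TIP1-2 with 486 (166 to 670.2), PIP2-1 with 337 (160.2 to 461) and PIP2-7 with 294 (158 to 363). TIP2-1 came next with a mean of 293 RPKM but the widest range of these, 39.0 to 716. In the WT control TIP2-1 was the most abundant aquaporin, just above PIP1-2 at 711 RPKM, and in the WT library labelled release it was not among the first 5, which were PIP1-2, PIP2-1, TIP1-2, PIP2-7 and PIP1-4. The best NIP was NIP1-2 with a mean of 14.5 RPKM, and the best SIP was SIP1-1 with 44.3.

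The subfamilies were compared by their summed RPKM. Summed PIP level in the library labelled release was 0.461 of the control level in WT, 0.736 in aba2-1 and 0.522 in p5cs1-4. Summed TIP level was 0.178, 0.418 and 0.210 of control in the same order, so that the TIP part of all aquaporin RPKM went from 34.2% to 16.3% in WT, from 33.0% to 21.5% in aba2-1 and from 35.1% to 17.4% in p5cs1-4. TIP2 genes were the lowest of all, at 0.101, 0.222 and 0.139 of control. Summed SIP level was 0.985, 0.898 and 0.939 of control in RPKM. In CPM with trimmed-mean (TMM) factors it was lower, at 0.875, 0.776 and 0.836 of control. Summed NIP level was 1.52 times control in aba2-1 and 1.49 times in p5cs1-4 in RPKM, and 1.31 and 1.38 times in CPM with TMM factors. In WT the direction of the summed NIP level depended on the scaling, at 1.02 times control in RPKM and 0.912 times in CPM with TMM factors. Against TMM, RPKM moved the median ratio of all genes upward by between 0.067 and 0.198 on the log2 scale in the comparisons with control or WT. The changes given from here on are on the TMM scale.

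**Figure D1:**
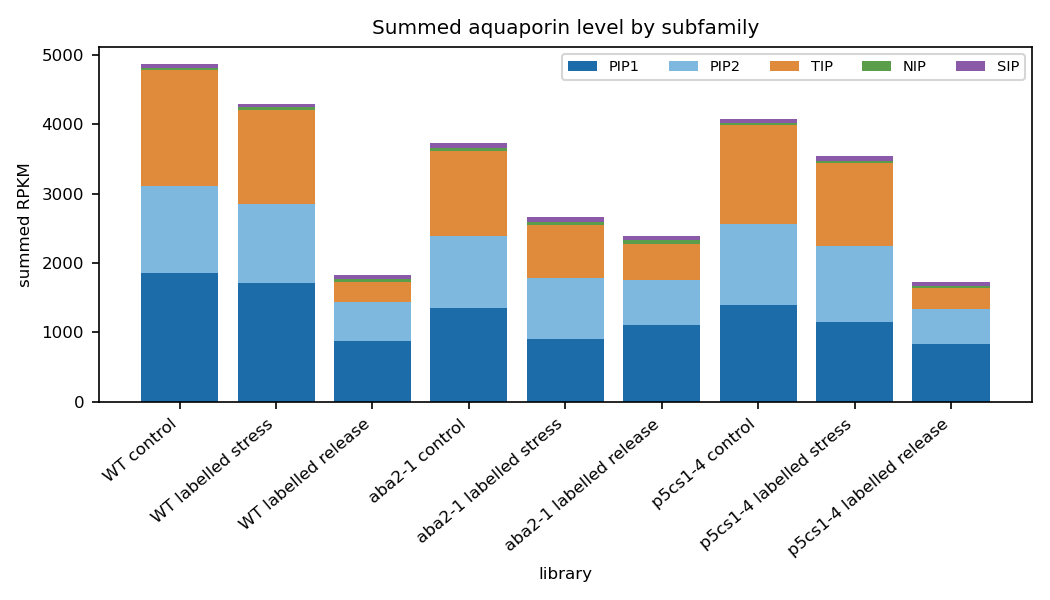
Summed RPKM of the PIP1, PIP2, TIP, NIP and SIP genes in each of the 9 libraries, 1 bar per library. The TIP part is 34.2% of the bar in the WT control and 16.3% in the WT library labelled release, while NIP and SIP genes are thin bands in all libraries.

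**Figure D2:**
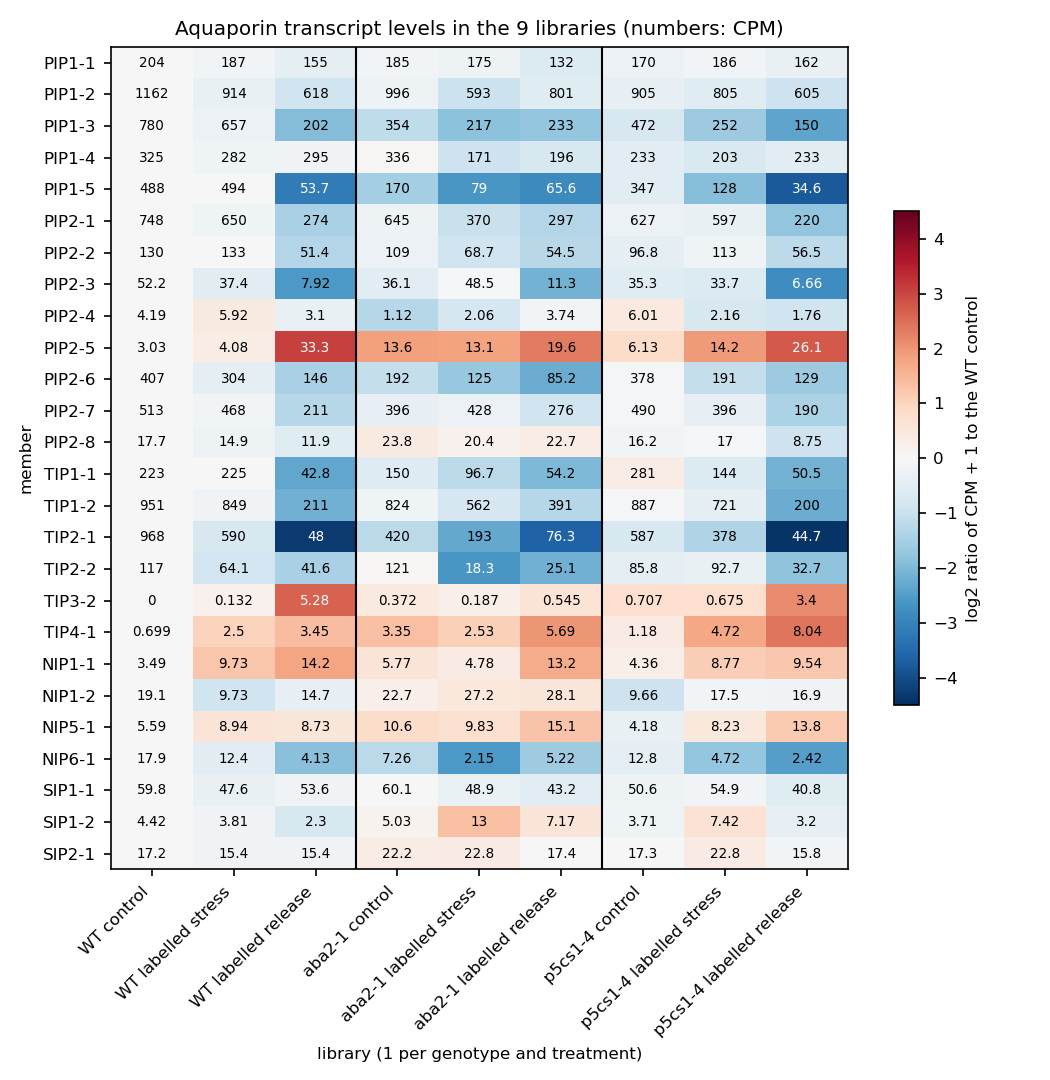
Level of the 26 members that reached 5 CPM in at least 1 library, with the CPM printed in each cell and colour for the log2 ratio of CPM + 1 to the WT control. Blue cells gather in the columns labelled release for PIP1-5, PIP2-3, TIP1-1, TIP1-2 and TIP2-1, and PIP2-5 is the member with the strongest red, at 33.3 CPM in the WT library labelled release.

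Between control and labelled release, 9 of the 29 members that could be tested fell and 0 rose. The test was an additive model of treatment and genotype over all 9 libraries (edgeR quasi-likelihood test on rounded counts, 19600 genes whose mean was 1 CPM or more, and a threshold of 0.05 on the p adjusted by Benjamini-Hochberg). Over all genes tested, 3.89% were called lower and 1.8% higher in it. The 6 members left out for low counts were TIP1-3, TIP3-1, TIP5-1, NIP4-1, NIP4-2 and NIP7-1. The genotypes stand in for repeats, so a p-value sets the mean treatment difference against the spread that the additive terms leave. Unlike responses of the genotypes are part of that spread, and the pooled experiments add no replicates. Without WT, or without p5cs1-4, the model called 0 members and 0 genes at all, with 3156 and 2352 genes at an unadjusted p under 0.05, and without aba2-1 it called 13 members lower, against 11.8% of genes, and 4 higher, against 7.92%. DESeq2 called 12 lower, against 10.2% of genes, and 3 higher, against 6.59%. These 12 were the 9 that fell with PIP1-3, TIP2-2 and NIP6-1, and the 3 were PIP2-5, TIP4-1 and NIP1-1.

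Leaf markers moved the same way as the members that fell. The summed CPM of 10 genes of photosynthesis was 0.342, 0.697 and 0.301 of control under labelled release in WT, aba2-1 and p5cs1-4, with 10 of 10 detected in every library, and 3 of 10 fell in the model. The sum over the 10 genes ran from 15937 to 31689 CPM in controls and from 7611 to 11110 CPM under labelled release. Root markers (11 genes) summed to between 27.8 and 56.6 CPM in controls and between 50.6 and 70.1 CPM under labelled release, and 0 of 8 tested passed. Their sum under labelled release was 2.26, 0.893 and 2.53 times control in WT, aba2-1 and p5cs1-4. ESB1 made up much of it, and 87.9% to 96.5% of its reads had more than 1 mapping place. Without ESB1, left out after its values were seen, the ratios were 3.66, 1.08 and 3.48, so that the direction in aba2-1 flipped. CASP4, CASP5 and EXPA7 were at 0 in the WT control and CASP5 in the aba2-1 library labelled stress. The part of tissue make-up in the results was not tested.

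For pairs of libraries, a member is called here when it reaches 5 CPM in either library and differs at least 2-fold on the scale of CPM + 1. These calls have no test, and their intervals are exact 95% intervals for counting error only. Under labelled release in WT, 12 of the 23 members past the floor were lower than control, against 14% of 16719 genes, and 3 were higher, against 12.7%. In p5cs1-4, 12 of 24 were lower, against 11.8% of genes, and 3 higher, against 8.4%. In aba2-1, 8 of 24 were lower, against 5.62% of genes, and 1 higher, against 4.56%. On the scale of deposited RPKM, 5 were lower in aba2-1, against 3.58% of genes, since PIP2-1, PIP2-6 and TIP1-2 came to 0.535, 0.520 and 0.552 of control. The median log2 ratio of the members past the floor was -1.28 in WT, -0.50 in aba2-1 and -1.08 in p5cs1-4, while that of all genes was -0.02 in aba2-1 and nearer to 0 in the others. It was -0.34, -0.19 and -0.17 over all 35 members, undetected ones included.

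The same 8 members were at least 2-fold lower in all 3 genotypes. They were PIP1-5, PIP2-1, PIP2-3, PIP2-6, TIP1-1, TIP1-2, TIP2-1 and TIP2-2, out of 22 past the floor in each genotype, which compares with 1.63% of 15740 genes. On RPKM the count was 5, without PIP2-1, PIP2-6 and TIP1-2, against 1% of genes. PIP1-3, PIP2-7 and NIP6-1 were lower in WT and p5cs1-4, PIP2-2 was lower in WT and PIP2-4 in p5cs1-4. Of the 22 members, 0 were higher in all 3, against 125 of 15740 genes, so few that this count does not set the family apart. PIP2-5 was higher in WT and p5cs1-4, NIP1-1 in WT and aba2-1, TIP3-2 in WT, and TIP4-1 and NIP5-1 in p5cs1-4.

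**Figure D3:**
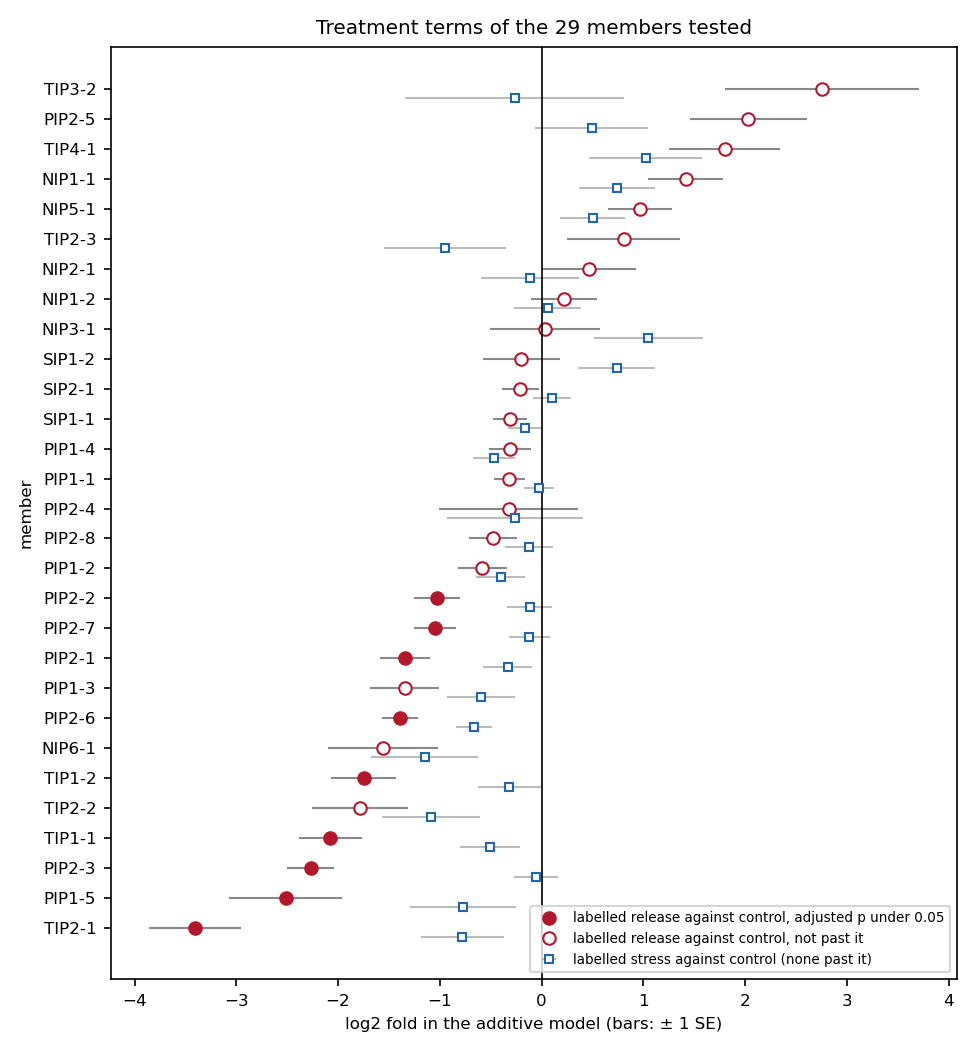
Treatment terms of the additive model for the 29 members tested, as log2 fold with bars of 1 SE, derived from the log2 fold and the test's F statistic. Filled circles are the 9 members past an adjusted p of 0.05 for labelled release against control, all on the left of 0, and squares give labelled stress against control, where 0 members passed.

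Of the 5 PIP1 genes, 1 fell in the model, where 3.89% of all genes were called lower. PIP1-5 (AT4G23400, chr4:12220641-12222468) stood at 488, 494 and 53.7 CPM in the control, labelled stress and labelled release libraries of WT, at 169.6, 79.0 and 65.6 CPM in those of aba2-1 and at 347, 128 and 34.6 CPM in those of p5cs1-4. The 3 libraries labelled release were below the other 6. The share of all genes with such a separation is not given, here or for the members below, so the separation is description only. PIP1-5 fell by 2.52 on the log2 scale in the model (SE 0.55, edgeR adjusted p = 0.0468), and was 9.09-fold lower in WT (8.22 to 10.1) and 2.59-fold lower in aba2-1 (2.35 to 2.84).

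PIP1-2 (AT2G45960), a major PIP of leaves and roots, stood at 1162, 914 and 618 CPM in WT, at 996, 593 and 801 CPM in aba2-1 and at 905, 805 and 605 CPM in p5cs1-4, again as control, labelled stress and labelled release. Its labelled release libraries were below all controls but overlapped with those labelled stress. It did not pass the model (log2 fold -0.58, SE 0.24, adjusted p = 0.168 with edgeR). PIP1-3 (AT1G01620) went from 780.3 and 657 to 202 CPM in WT, through 354, 217 and 233 CPM in aba2-1 and through 472, 252 and 150.3 CPM in p5cs1-4. It was 3.87-fold lower than control under labelled release in WT (3.65 to 4.1) and 3.14-fold lower in p5cs1-4 (3.0 to 3.29), and it missed the model's threshold (log2 fold -1.34, adjusted p = 0.0605 with edgeR) but passed with DESeq2. The other PIP1 genes varied little, PIP1-1 (AT3G61430) between 132 and 204 CPM and PIP1-4 (AT4G00430) between 171 and 336 CPM.

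In the PIP2 group, the strong water channels of the plasma membrane, 5 of 8 members fell in the model, against 3.89% of all genes. PIP2-1 (AT3G53420), whose protein is phosphorylated and takes part in stomatal closure, stood at 748, 649.7 and 274 CPM in WT, at 645, 370.5 and 297 CPM in aba2-1 and at 627, 597 and 220.0 CPM in p5cs1-4. PIP2-7 (AT4G35100) stood at 513, 468 and 211 CPM, at 396, 428 and 276 CPM and at 489.9, 396 and 190.3 CPM in the same order. For both genes the libraries labelled release lay below the other 6. PIP2-1 fell by 1.34 on the log2 scale (SE 0.24, edgeR adjusted p = 0.0312) and PIP2-7 fell by 1.05 (SE 0.21, adjusted p = 0.0367).

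PIP2-6 (AT2G39010) stood at 407, 304 and 146 CPM in WT, at 192, 125 and 85.2 CPM in aba2-1 and at 378, 191 and 129 CPM in p5cs1-4. It was in order control, labelled stress, labelled release in each genotype and lowest throughout in aba2-1. It fell by 1.39 on the log2 scale (SE 0.18, edgeR adjusted p = 0.0168).

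The close copies PIP2-2 and PIP2-3 both fell. PIP2-3, first described as the desiccation-responsive gene RD28, stood at 52.2, 37.4 and 7.92 CPM in WT, at 36.1, 48.5 and 11.3 CPM in aba2-1 and at 35.3, 33.7 and 6.66 CPM in p5cs1-4. PIP2-2, which contributes to root water uptake, stood at 130.2, 133 and 51.4 CPM, at 109, 68.7 and 54.5 CPM and at 96.8, 113 and 56.5 CPM in the same libraries. Both were lowest under labelled release, with no overlap with the other 6 libraries. PIP2-3 fell by 2.27 on the log2 scale (SE 0.23, edgeR adjusted p = 0.0143) and PIP2-2 fell by 1.03 (SE 0.23, adjusted p = 0.0467). In RPKM, PIP2-2 had a mean of 74.4 and PIP2-3 of 24.5. Both were also called with reads that map to 1 place only, so the calls did not rest on the shared reads.

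PIP2-5 was the PIP with its highest values under labelled release. It stood at 3.03, 4.08 and 33.3 CPM in WT, at 13.6, 13.1 and 19.6 CPM in aba2-1 and at 6.13, 14.2 and 26.1 CPM in p5cs1-4. Its 3 libraries labelled release were above the other 6, and in the aba2-1 control it was already 4.49-fold higher than in WT (2.47 to 8.83). It was 11.0-fold higher under labelled release than in control in WT (6.33 to 20.9), 4.25-fold in p5cs1-4 (3.42 to 5.33) and 1.44-fold in aba2-1 (1.10 to 1.89). It did not pass the model (log2 fold 2.03, SE 0.57, adjusted p = 0.0752 with edgeR) and passed with DESeq2. PIP2-8 (AT2G16850) ran from 8.75 to 23.8 CPM and PIP2-4 (AT5G60660) from 1.12 to 6.01 CPM.

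TIP2-1 had the largest fall of the members called in the model. TIP2-1, also called delta-TIP and able to carry ammonia, stood at 968, 590.1 and 48.0 CPM in WT, at 420.4, 193 and 76.3 CPM in aba2-1 and at 587, 378 and 44.7 CPM in p5cs1-4. The libraries labelled release were below all others, and within each genotype labelled stress lay between control and labelled release. It was 20.2-fold lower than control in WT (18.2 to 22.4), 13.1-fold lower in p5cs1-4 (12.1 to 14.2) and 5.51-fold lower in aba2-1 (5.11 to 5.95). In the model it fell by 3.4 on the log2 scale (SE 0.45, edgeR adjusted p = 0.0183).

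Both abundant TIP1 genes, of the gamma type, fell as well. TIP1-2 (AT3G26520) stood at 951, 849 and 211 CPM in WT, at 824, 562 and 391 CPM in aba2-1 and at 887, 721 and 199.7 CPM in p5cs1-4. TIP1-1 (AT2G36830) stood at 223, 225 and 42.8 CPM, at 149.9, 96.7 and 54.2 CPM and at 281, 144 and 50.5 CPM. Neither overlapped between labelled release and the rest. TIP1-1 fell by 2.08 on the log2 scale (SE 0.31, edgeR adjusted p = 0.0220) and TIP1-2 fell by 1.75 (SE 0.32, adjusted p = 0.0312).

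TIP2-2 (AT4G17340) stood at 117, 64.1 and 41.6 CPM in WT, at 121, 18.3 and 25.1 CPM in aba2-1 and at 85.8, 92.7 and 32.7 CPM in p5cs1-4. Its lowest library was that of aba2-1 under labelled stress, 6.64-fold below the aba2-1 control (5.65 to 7.83), so the treatments overlapped, and it missed the model's threshold (log2 fold -1.79, adjusted p = 0.0657 with edgeR) but passed with DESeq2. TIP2-3 (AT5G47450) ran from 0.187 to 2.53 CPM.

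Of the low TIPs, 2 were called higher under labelled release, each in 1 genotype. TIP4-1 (AT2G25810), known from roots, stood at 0.699, 2.5 and 3.45 CPM in WT, at 3.35, 2.53 and 5.69 CPM in aba2-1 and at 1.18, 4.72 and 8.04 CPM in p5cs1-4. It was 6.82-fold higher than control under labelled release in p5cs1-4 (4.23 to 11.6), and did not pass the model (adjusted p = 0.0873 with edgeR) but passed with DESeq2. TIP3-2 (AT1G17810), beta-TIP of the protein storage vacuoles of seeds, stood at 0, 0.132 and 5.28 CPM in WT, at 0.372, 0.187 and 0.545 CPM in aba2-1 and at 0.707, 0.675 and 3.4 CPM in p5cs1-4. With 0 reads in the WT control, it was at least 5.91-fold higher under labelled release there, by the lower end of the exact interval. Its seed partner TIP3-1 (AT1G73190) reached 2.76 CPM in WT and 3.14 CPM in p5cs1-4 under labelled release, against at most 0.530 CPM in the other 7 libraries.

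Of the 10 seed markers, EM1, EM6 and OLEO2 were highest in the same libraries as the TIP3 pair, those of WT and p5cs1-4 labelled release. RAB18, which is not in that list, was highest there too. The 10 genes, storage proteins, oleosins and late embryo proteins, summed to 53.4 CPM in WT and 39.5 CPM in p5cs1-4 under labelled release, and to 1.87 CPM in aba2-1. They summed to between 1.68 and 6.99 CPM in controls and to between 0.526 and 2.29 CPM under labelled stress. EM1, EM6 and OLEO2, of the late embryo proteins and oleosins, made up 52.1 of the 53.4 CPM and 36.2 of the 39.5 CPM, and the highest value of any other gene of the list was 1.37 CPM. Reads were found for 6 and 9 of the 10 in the WT and p5cs1-4 libraries labelled release, where SESA1 was at 0, with SESA2, SESA3 and SESA4 also at 0 in the former. The part of seed material in the TIP3 values was not tested. No read of TIP1-3 (AT4G01470) or TIP5-1 (AT3G47440), both known from pollen, was found in any library.

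**Figure D4:**
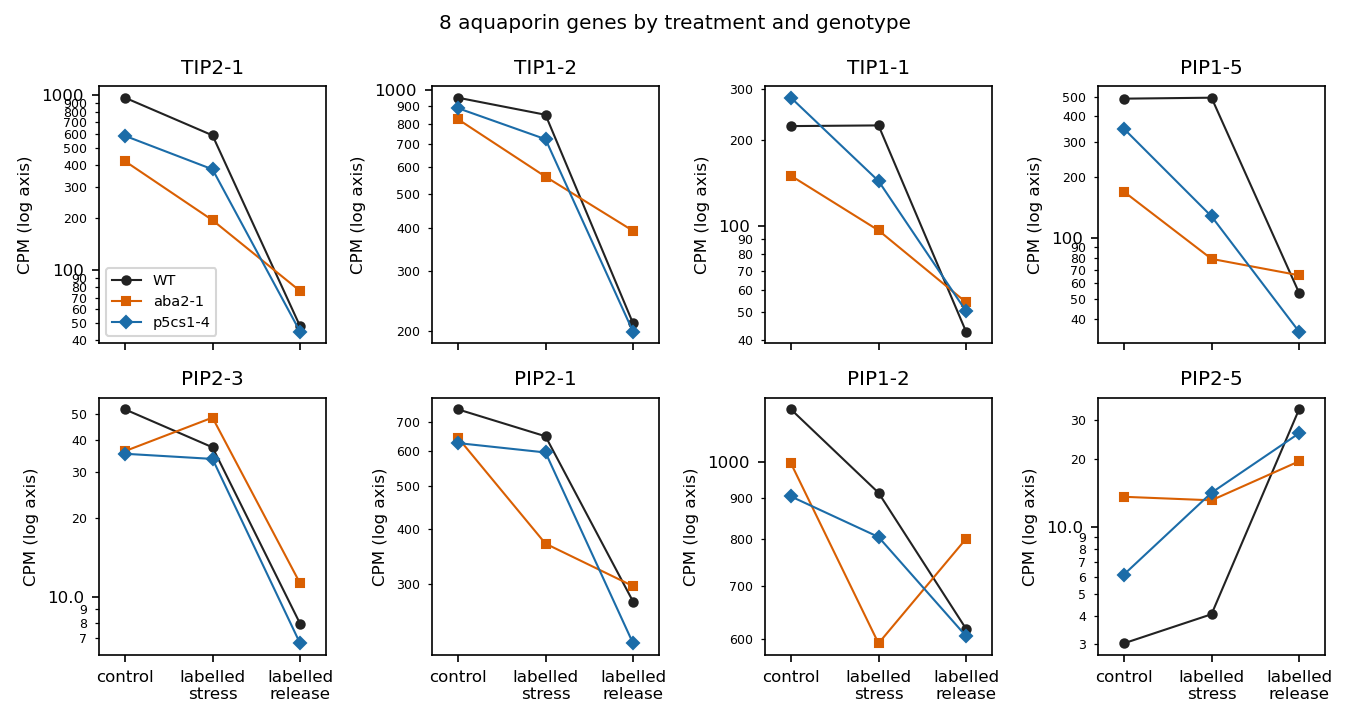
CPM on a log axis of 8 members in the control, labelled stress and labelled release libraries, 1 point per library, with lines joining the libraries of 1 genotype. In WT, TIP2-1 goes from 968 to 48.0 CPM, and PIP2-5 stands at 3.03 CPM in control and 33.3 CPM under labelled release.

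NIP genes were low and mixed. NIP1-2 (AT4G18910) stood at 19.1, 9.73 and 14.7 CPM in WT, at 22.7, 27.2 and 28.1 CPM in aba2-1 and at 9.66, 17.5 and 16.9 CPM in p5cs1-4, with no order of treatments that the genotypes shared. NIP1-1 (AT4G19030), a root NIP, stood at 3.49, 9.73 and 14.2 CPM, at 5.77, 4.78 and 13.2 CPM and at 4.36, 8.77 and 9.54 CPM. It was highest under labelled release in each genotype, 4.08-fold above control in WT (2.38 to 7.50), and did not pass the model (log2 fold 1.42, adjusted p = 0.0634 with edgeR) but passed with DESeq2.

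Neither boric acid channel passed the edgeR model, and NIP6-1 passed with DESeq2. NIP6-1 (AT1G80760), which moves boron into young shoot tissue, stood at 17.9, 12.4 and 4.13 CPM in WT, at 7.26, 2.15 and 5.22 CPM in aba2-1 and at 12.8, 4.72 and 2.42 CPM in p5cs1-4. NIP5-1 (AT4G10380), which takes up boron in roots, ranged from 4.18 to 15.1 CPM and was 3.31-fold higher than control under labelled release in p5cs1-4 (2.52 to 4.39), and 1.56-fold in WT (0.976 to 2.58). Their log2 folds in edgeR were -1.56 for NIP6-1 (adjusted p = 0.115) and 0.97 for NIP5-1 (adjusted p = 0.104).

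NIP2-1 (AT2G34390) ran from 0.937 to 1.96 CPM and NIP3-1 (AT1G31885) from 0.233 to 2.02 CPM. NIP7-1 (AT3G06100) had 22 reads over all libraries, NIP4-2 (AT5G37820) had 2 and NIP4-1 (AT5G37810) had 0. A count of 0 in one library allows up to 3 reads, or 0.699 CPM in the WT control.

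The SIP genes, water channels of internal membranes, did not pass the model. SIP1-1 (AT3G04090) stood at 59.8, 47.6 and 53.6 CPM in WT, at 60.1, 48.9 and 43.2 CPM in aba2-1 and at 50.6, 54.9 and 40.8 CPM in p5cs1-4. The treatments overlapped and its log2 fold was -0.31 (SE 0.17, adjusted p = 0.267 with edgeR). SIP2-1 (AT3G56950) ran from 15.4 to 22.8 CPM. SIP1-2 (AT5G18290) ran from 2.3 to 13.0 CPM and was highest in the aba2-1 library labelled stress, 2.59-fold above its control (1.71 to 4.07).

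Between labelled stress and control, 0 of the 29 members passed the model, in which 0% of genes were called higher and 0% lower, with 1613 genes and 1 member, PIP2-6, at an unadjusted p under 0.05. DESeq2 called 29 genes higher, 38 lower and 0 members. These comparisons share the control libraries with those of labelled release. In WT, 1 of 22 members past the floor was 2-fold higher (NIP1-1, 2.79-fold, 1.59 to 5.23), against 4.45% of genes, and 0 were lower, against 4.09%. In aba2-1, 4 of 23 were lower (PIP1-5, TIP2-1, TIP2-2 and NIP6-1), against 3.57% of genes, and SIP1-2 was higher, against 4.5%. On RPKM 2 were lower there, TIP2-2 and NIP6-1, against 2.36%. In p5cs1-4, 3 of 24 were lower (PIP1-5, PIP2-4 and NIP6-1), against 5.84%, and PIP2-5 was higher, against 4.03%. PIP1-5 was at 494 CPM in WT under labelled stress, 1.01 times its control, while it was 2.15-fold lower in aba2-1 (1.95 to 2.36) and 2.71-fold lower in p5cs1-4 (2.53 to 2.90). Summed leaf markers under labelled stress were 0.849, 0.604 and 0.518 of control in WT, aba2-1 and p5cs1-4, and root markers 1.20, 0.606 and 2.71 times control, and their part in these values was not tested. Whether the mutants differ from WT in this could not be tested with 1 library each.

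Labelled release against labelled stress gave 3 members that fell, PIP2-3 (-2.21, adjusted p = 0.0197), TIP2-1 (-2.62, adjusted p = 0.0348) and TIP1-1 (-1.57, adjusted p = 0.0441), each as log2 fold from edgeR. Over all genes 2.16% were called lower and 1.53% higher in that contrast, and 0 members were higher. The count lower was 0 without WT or without p5cs1-4, where 0 genes at all were called in either direction. The count of members lower was 10 without aba2-1, where 5.72% of genes were lower and 4.16% higher, and 9 with DESeq2, where 7.45% were lower. DESeq2 also called 2 members higher, TIP3-2 and PIP2-5, against 5.71% of genes.

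For both mutants, the most members 2-fold apart from WT were counted under labelled stress. In the aba2-1 control, 5 of 23 members past the floor were lower than in WT, against 9.48% of genes, and 1 was higher, against 8.13%. The lower members were PIP1-3, PIP1-5, PIP2-6, TIP2-1 and NIP6-1, between 2.12-fold for PIP2-6 (1.96 to 2.3) and 2.88-fold for PIP1-5 (2.66 to 3.12), and the higher one was PIP2-5. Leaf markers summed to 15937 CPM in the aba2-1 control and 31689 CPM in that of WT, and root markers to 56.6 and 28.9 CPM. Their part in this comparison was not tested. Under labelled stress, 8 of 24 were lower in aba2-1, against 6.49% of genes, and 3 were higher (PIP2-5, NIP1-2 and SIP1-2), against 6.65%. The lower ones were the same 5 with PIP2-4, TIP1-1 and TIP2-2, and PIP1-5 was 6.25-fold lower (5.79 to 6.74). Under labelled release, 1 of 25 was lower, TIP3-2, against 5.27% of genes, and 1 higher, SIP1-2, against 4.8%. On RPKM 4 were higher there (PIP2-8, TIP1-2, NIP1-2 and SIP1-2), against 5.85%.

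For p5cs1-4 the control library held 0 of 22 members 2-fold higher or lower than WT, against 3.82% and 2.69% of genes. Under labelled stress, 4 of 24 were lower (PIP1-3, PIP1-5, PIP2-4 and NIP6-1), against 6.53% of genes, and PIP2-5 was higher, against 5.94%. Under labelled release, 0 of 23 were lower, against 1.33% of genes, and TIP4-1 was higher, against 1.8%. In the additive model 0 members passed for either mutant and 0% of genes were called in either direction. At an unadjusted p under 0.05 there were 2878 genes and 5 members for aba2-1 and 2124 genes and 1 member for p5cs1-4. DESeq2 called 246 genes (1.26%) higher and 285 (1.45%) lower for aba2-1, with PIP2-6 among the latter, and 81 higher and 76 lower for p5cs1-4, with 0 members. The WT libraries are shared by the comparisons of both mutants.

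Under labelled release, 12 members were 2-fold lower than control in WT. Of those 12, 11 had a log2 ratio nearer to 0 in aba2-1, with TIP2-2 as the exception, and 8 were still 2-fold lower (5 on RPKM). Of the 2348 genes 2-fold lower in WT, 95.2% were nearer to 0 in aba2-1, so the members' share was near that of all genes. The median difference in log2 ratio, aba2-1 minus WT, was 0.94 over the members and 1.39 over those genes. In p5cs1-4, 6 of the 12 were nearer to 0, against 71.5% of those genes, and 11 were 2-fold lower. The median difference was -0.02 over the members and 0.35 over the genes. The members and genes were taken for a low ratio in WT. The control level enters each ratio. For PIP1-5, the levels under labelled release were 53.7 CPM in WT and 65.6 CPM in aba2-1, close together, while the controls were 488 and 169.6 CPM. With 1 library per genotype and treatment, the difference between genotypes was not tested.

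**Figure D5:**
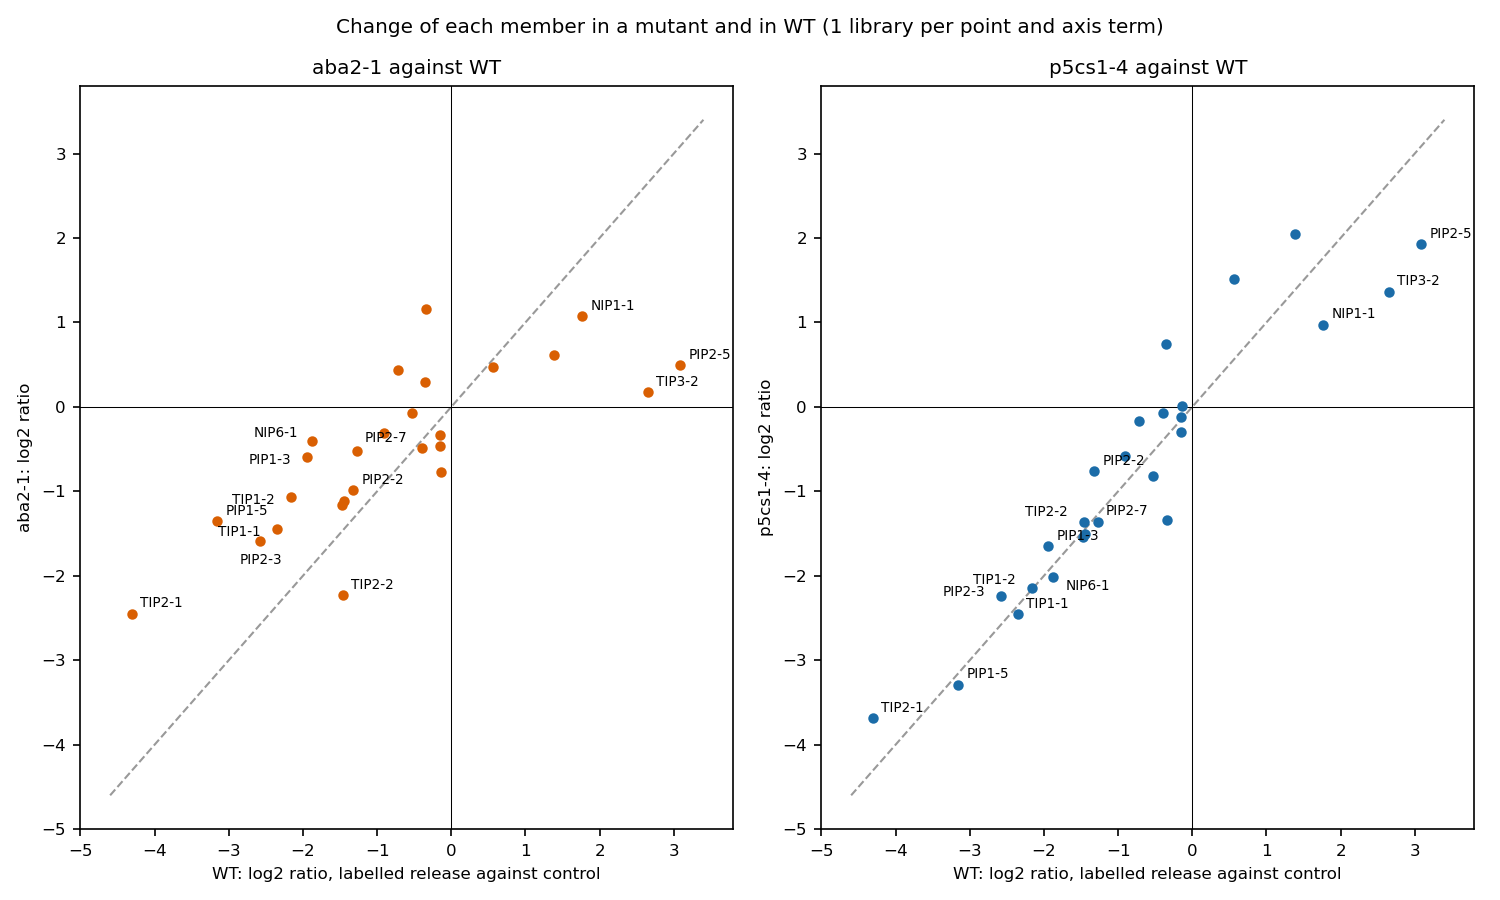
Log2 ratio of CPM + 1, labelled release against control, in WT on the horizontal axis and in aba2-1 or p5cs1-4 on the vertical axis, 1 point for each of the 26 members that reached 5 CPM in any library, with the dashed line where both are equal. Most points left of 0 lie above the line in aba2-1 and close to it in p5cs1-4.

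Proton pumps and regulators of aquaporins were set beside the family. Pumps supply the gradient that drives solute and water uptake, and of 13 tested, 1 rose and 1 fell under labelled release in the model. AHA3, a plasma membrane pump, rose by 0.79 on the log2 scale (SE 0.17, edgeR adjusted p = 0.0443) and AHA11 fell by 1.53 (SE 0.22, adjusted p = 0.0217). Of 12 regulators tested, 0 rose and 2 fell in the same model, in which 1.8% of all genes were called higher and 3.89% lower. RMA1, a ubiquitin ligase of the endoplasmic reticulum whose pepper counterpart acts on a PIP2 protein, fell by 0.82 (SE 0.18, edgeR adjusted p = 0.0473), and the locus AT3G02880 fell by 1.54 (SE 0.18, adjusted p = 0.0146). TSPO, another regulator in the list, stood at 0.699 CPM in the WT control and 236 CPM in the WT library labelled release. In the same order it stood at 13.8 and 4.05 CPM in aba2-1 and at 1.24 and 186 CPM in p5cs1-4. It did not pass the model (log2 fold 4.39, SE 2.31, adjusted p = 0.254 with edgeR), whose spread includes unlike responses of the genotypes. The median log2 fold was 0.05 over the pumps, -0.01 over the regulators, -0.32 over the 29 aquaporins and 0.02 over all genes tested.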

How the data were processed

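The study sequenced poly(A) RNA of whole Arabidopsis seedlings in 9 libraries, amplified in 18 PCR cycles without molecular identifiers per the labels' protocols, so intervals and floors cover counting error only. Per the submitters' processing notes, TAIR10 and CASAVA 1.6 were used, with no role named. The aligner, counting program and use of strand are not given in the sources used here. Per the file headers, each deposited table holds a gene length, an estimated count of reads, an RPKM value and the fraction of its reads with more than 1 mapping place, which came to 2.79% to 3.89% of the reads of a library. Deposited RPKM rest on a total of 103.6% to 105.2% of the reads on genes.

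TMM factors from edgeR 4.0.16 in R 4.3.3 turned the estimated counts, after rounding, into CPM. With 1 library per genotype and treatment, pairs of libraries were compared by the log2 ratio of CPM + 1, with a floor of 5 CPM in either library and a threshold of 2-fold, and exact 95% conditional intervals (scipy 1.17.1). The additive edgeR model of treatment and genotype had 4 residual degrees of freedom. Its SE is the size of the log2 fold divided by the square root of the F statistic of the test, not a fitted standard error. On simulated counts of 19600 genes, with a dispersion of 0.05, the model called 53% of 2-fold genes, 98% of 4-fold genes and 4 unchanged genes for labelled release against control. That dispersion was chosen, not estimated from these data, so the percentages may not hold for them. The simulated counts also held no difference between genotypes, so they cannot show how the model does where genotypes respond differently. DESeq2 1.42.0, median-of-ratios scaling, no low-count filter, uniquely mapped reads, other floors, a pseudocount of 0.1, RPKM, and each genotype or treatment left out were the alternatives. Coding sequences and promoters were read from the RefSeq TAIR10.1 genome with Biopython 1.88, and all 35 members matched the annotation. Protein sequences were not used here.

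The members and the lists of pumps, regulators and markers were chosen with earlier results of these data known. Values in all 9 libraries are given for members that pass the model, for those at least 4-fold from control in a genotype and past the floor, and for the 3 members of highest mean RPKM of PIP1, PIP2 and TIP and the highest of NIP and SIP. Ranges are given for the rest.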

Additional observations from a re-analysis of the deposited data

How the results depend on the processing

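Treatments were compared within genotypes, since genotype is a term of the model. No paired analysis by replicate number was possible because the labels carry none. No value changed its sign among the called results under any alternative run. For labelled release against control, DESeq2 called 3 members higher and 12 lower, and leaving out aba2-1 called 4 higher and 13 lower. The count lower was 0 without WT and 0 without p5cs1-4, which leave 6 libraries and where 0 genes at all were called. For labelled release against labelled stress, DESeq2 called 2 higher and 9 lower, and the count lower was 0 without WT, 10 without aba2-1 and 0 without p5cs1-4. Without WT or without p5cs1-4, 0 genes at all were called there too. For aba2-1 against WT, DESeq2 called 1 member lower. Over single members in the model, 951 values kept their side of the threshold, 30 came to pass it and 24 no longer did, 12 of these without WT and 12 without p5cs1-4.

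With no floor, counts of members 2-fold higher were 5, 2 and 5 under labelled release in WT, aba2-1 and p5cs1-4, 2 under labelled stress in WT and 2 in p5cs1-4, and 2 for aba2-1 against WT in control. With no floor, 2 members were lower in aba2-1 than in WT under labelled release. With a floor of 20 CPM, the higher counts were 1, 0 and 1 under labelled release and 0, 0 and 0 under labelled stress in WT, aba2-1 and p5cs1-4. That floor gave 0, 1 and 0 higher for aba2-1 against WT in control, labelled stress and labelled release, and 0 and 0 for p5cs1-4 against WT under labelled stress and labelled release. It gave lower counts of 1 under labelled stress in p5cs1-4, 0 for aba2-1 against WT under labelled release and 2 for p5cs1-4 against WT under labelled stress. For these other floors the share of all genes called is not given, so the counts show only how the calls moved. On deposited RPKM, aba2-1 had 5 members lower under labelled release and 2 under labelled stress, 5 were lower under labelled release in all 3 genotypes, and 4 were higher in aba2-1 than in WT under labelled release. Median-of-ratios scaling gave 0 higher for p5cs1-4 against WT under labelled release.

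With uniquely mapped reads, the aquaporin share in control, labelled stress and labelled release was, for WT, 0.655%, 0.579% and 0.258%, for aba2-1 0.509%, 0.370% and 0.338%, and for p5cs1-4 0.553%, 0.490% and 0.246%, since reads of other genes drop out of the total. Without ESB1, an alternative chosen after seeing the data, the summed root markers of aba2-1 under labelled release were 1.08 times control. The cause of the other moves was not tested. Depth limits the members under 5 CPM most in the WT control.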
